A study of Bos taurus with 10 samples.

Results

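Cysteine tRNA-like loci are genomic sequences that resemble a cysteine tRNA but are not held to be confident tRNA genes, and they carry the prefix tRX-Cys in the tsRNA table. They were taken by name: every row that starts with tRX-Cys- and ends in one of 4 fragment types, namely 5′ fragments, 3′ fragments, fragments of neither end (the suffix "other", read here in that sense) and whole-length reads ("wholecounts"). This gave 65736 of the 184397 rows, from 16434 loci, and 45.2% of all rows of these 4 types. All loci carry the anticodon label NNN, so none is assigned an anticodon, and their numbers run from 1 to 148086.

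Small RNA was sequenced from sperm of dairy bulls (Bos taurus) graded by bull fertility or by the fertility of their daughters. The groups are high bull fertility, low bull fertility, high daughter fertility and low daughter fertility, with 3 samples each, and no sample received an extra treatment. Of the 10 samples, 1 counts as both high bull and high daughter fertility and 1 as both high bull and low daughter fertility, so the comparisons share libraries. Age, breed and genotype are not given in the labels. Whether each sample is a different bull is not labelled, so p-values may measure only technical spread. The table holds tRNA and tRNA-like entries alone, and sperm identity was not checked with it.

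A mature tRNA can be cleaved near its anticodon into a 5′ and a 3′ part, and 5′ parts are abundant in mammalian sperm, where they are studied as carriers of paternal information to the embryo. A cell can also make fragments from tRNA-like sequences scattered in the genome, many of which are copies left by retrotransposition. Ruminant genomes are rich in short interspersed elements (SINEs) that descend from tRNA genes, and tRNA search programs list many such copies as tRNA-like. A short read from one copy often matches many others, so counts of single loci are uncertain. Nothing in the sources used here states how such reads were divided.

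The table gives 1 group value per row and group, on the authors' scale of normalized counts. Each group value above 0 could be traced to 1 library: all 31300 member values were a whole number of reads times what 1 read is worth in 1 of the 3 libraries of the group (relative tolerance 1e-06). A group value therefore behaves as the middle one of 3 libraries, and a value above 0 needs a read in at least 2 of them. One read was worth 0.722, 1.00 and 1.62 normalized counts in the high bull fertility libraries and 0.528, 0.893 and 1.06 in the low ones. It was worth 1.27, 1.31 and 1.62 with high daughter fertility and 0.453, 0.722 and 1.11 with low daughter fertility, so by this measure the deepest library lay in the last group and the high daughter fertility libraries were all shallower than the low ones. Total reads per library are unknown, and in bulk sperm RNA fewer cells with a fragment cannot be told apart from less fragment per cell.

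Most of the cysteine tRNA-like rows were empty. A group value above 0 was found in 6619 rows (10.1%) of the high bull group, 7609 (11.6%) of the low bull group, 5939 (9.03%) of the high daughter group and 11133 (16.9%) of the low daughter group. Counting only values of at least 1, the numbers were 5607, 5408, 5939 and 6746, so the low daughter group still had the most rows but the order of the others changed. This floor asks for unlike numbers of reads per library. It could remove no row of the high daughter group, where 1 read was worth at least 1.27. In all, 13878 rows (21.1%) were above 0 in at least 1 group and 3705 in all 4. Another 16610 rows had a fold change in the authors' deposited table but no group value above 0, so their reads were too few or in too few libraries to move a median. The remaining 35248 rows had no fold change, as DESeq2 gives for a row without a read. Among tRNA genes 64.2% of rows were above 0 in some group, and among all other tRNA-like loci 24.7%.

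By locus, 11463 of the 16434 (69.8%) had at least 1 row above 0. Every listed locus had a fold change in some row, so each had at least 1 read in the series. How loci came to be listed is not stated, and the 69.8% is thus a share of loci with a read. Signal was usually of 1 kind per locus: 9160 of the 11463 loci (79.9%) had a single fragment type above 0. Neither-end fragments alone were found at 5389 loci, 3′ fragments alone at 2269 and 5′ fragments alone at 1502. Both ends without a neither-end fragment were found at 164 loci, and all 3 types at 112. At the 872 loci with a summed mean of at least 10, a single type held over 90% of the signal in 781 (89.6%), and neither-end fragments led in 593, 5′ fragments in 213 and 3′ fragments in 66.

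The values that were above 0 were small. A single read lay behind 38.8% of the values in the high bull, 39.4% in the low bull, 48.0% in the high daughter and 38.4% in the low daughter group. At least 10 reads lay behind 1039, 1059, 636 and 1401 values in that order, and at least 100 reads behind 34, 48, 13 and 35. The mean of the 4 group values reached 1 in 5525 rows, 10 in 857 rows (579 of neither end, 212 of the 5′ end and 66 of the 3′ end) and 100 in 29 rows. The 857 rows, 1.3% of all, held 57.8% of the signal.

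Cysteine tRNA-like loci made up 45.2% of the rows but little of the signal. Their summed values were 2.29% of those of the 4 fragment types in the high bull, 1.76% in the low bull, 1.94% in the high daughter and 1.61% in the low daughter group. The sums themselves were 40358, 37224.5, 38976.5 and 38072.2 in that order, so the low daughter group was lowest by share but not by sum. Per row the mean lay between 0.566 and 0.614 normalized counts in the 4 groups, against 8.2 to 10.6 for other tRNA-like loci and 695 to 1020 for tRNA genes. With 1 value per group these shares have no test. A group value above 0 needs a read in at least 2 libraries, so rows read in fewer add nothing to these sums. Rows with a fold change but no group value above 0 numbered 16610 of 65736 members and 96 of 1468 tRNA gene rows.

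Most of the signal of cysteine tRNA-like loci came from neither end of the tRNA-like sequence. Neither-end fragments held 62.9% of their signal in the high bull, 59.6% in the low bull, 59.2% in the high daughter and 59.0% in the low daughter group. Fragments of the 5′ end held 23.9%, 25.9%, 29.4% and 25.1%, and those of the 3′ end 13.1%, 14.5%, 11.4% and 15.9%, while no whole-length row was above 0. In other tRNA-like loci the neither-end share was 6.18% to 7.34% and the 5′ share 90% to 92%. The 14 cysteine tRNA genes, which read cysteine codons, lay between: their neither-end share was 22.7% to 28% and their 5′ share 62.8% to 70.2%. For tRNA-like loci named for glycine, glutamate, tryptophan, valine and arginine the neither-end share ran from 2.35% to 11.7%. For the neither-end share of signal, the ranges over the 4 groups did not overlap between cysteine tRNA-like loci and any of these classes. No test is possible with 1 value per group, and the groups share libraries. Counts of rows did not set these loci apart. Neither-end rows were 7528 of their 13878 rows above 0 in some group, against 10865 of 19278 at other tRNA-like loci. In the high bull group neither-end rows summed to 25402 here and 51368 at other tRNA-like loci, and 5′ rows to 9659 and 633766.

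**Figure D1:**
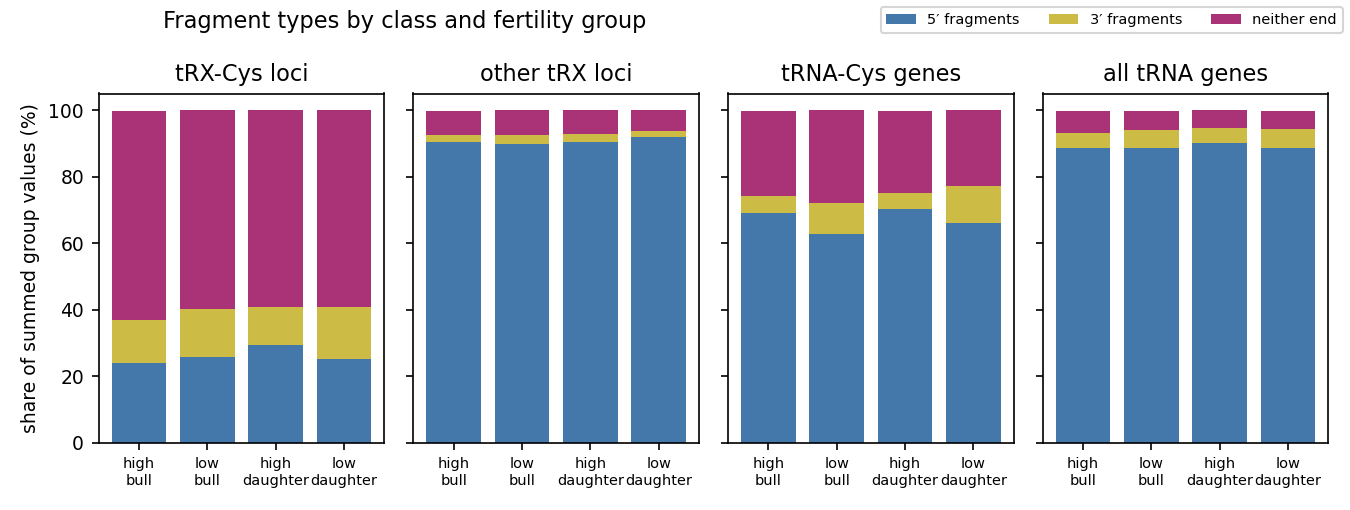
Share of the summed group values (%) held by 5′, 3′ and neither-end fragments in each fertility group, for cysteine tRNA-like loci, other tRNA-like loci, cysteine tRNA genes and all tRNA genes. Each bar is 1 group value sum with no error, and whole-length reads, at most 0.118%, are not drawn. Neither-end fragments fill 59.0% to 62.9% of the bars for cysteine tRNA-like loci and 5.4% to 7.34% of those for other tRNA-like loci and all tRNA genes.

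Reads antisense to the same loci were also common. Antisense rows summed to 18.2%, 18.7%, 17.0% and 16.1% of sense and antisense signal together (high bull, low bull, high daughter and low daughter fertility), against 1.65% to 2.04% at other tRNA-like loci and at most 0.0804% at tRNA genes. Of the 5564 loci with an antisense value above 0, 4154 (74.7%) also had a sense value above 0, which is 36.2% of the loci with sense signal. Among all listed loci 69.8% had a sense value above 0, so the 74.7% lies near the share of the whole list.

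Signal was spread thinly over rows rather than held by a few of them. Rows may count the same reads, so the number of separate fragments behind this spread is unknown. The 10 highest rows of each group held 8.04%, 7.8%, 6.87% and 5.46% of the cysteine tRNA-like signal (high bull, low bull, high daughter and low daughter fertility). It took 481, 467, 415 and 893 rows to reach 50% of it, and 3237, 3585, 3095 and 5857 rows to reach 90%. For other tRNA-like loci 45 to 57 rows reached 50%, and for tRNA genes 9 to 13. The low daughter fertility group thus needed the most rows, and it also had the fewest rows at 10 or more: 675, against 955, 753 and 823 in the other groups. Signal was likewise spread over the locus numbers: when the number range was cut into 10 equal parts, each part held between 8.71% and 11.6% of it. The listed loci were spread much the same way, with 1541 to 1812 per part.

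**Figure D2:**
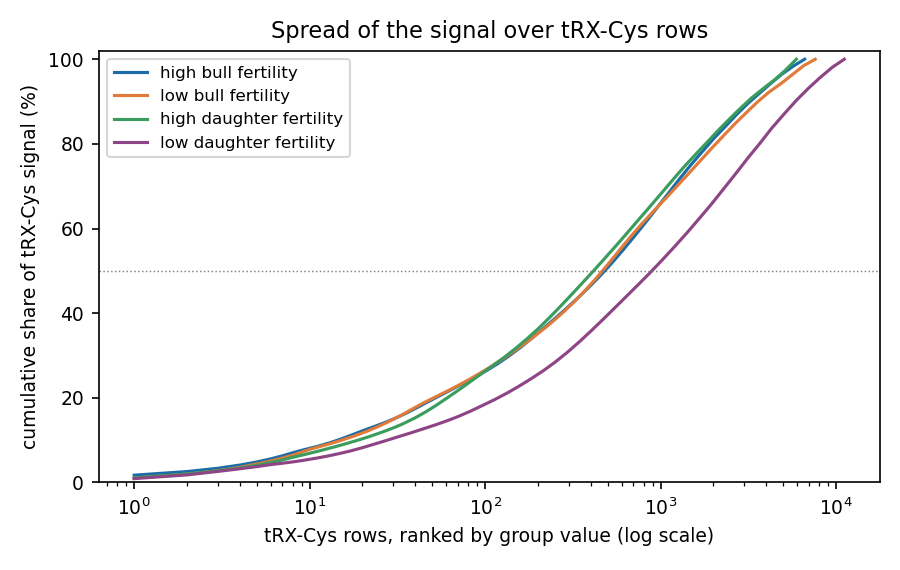
Cumulative share of the cysteine tRNA-like signal (%) against the rank of the row (log scale), with 1 line per fertility group. The lines cross 50% (dotted) at 415 to 481 rows in 3 groups and at 893 rows with low daughter fertility.

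The 3′ rows stood out in the low daughter fertility group. They were above 0 in 1023 rows of the high bull, 1521 of the low bull, 876 of the high daughter and 3193 of the low daughter group, so low exceeded high daughter fertility 3.64 times. For 5′ and for neither-end rows the same ratio was 1.57, and for 3′ rows of other tRNA-like loci 2.3. Of the 3193 rows, 1844 (57.8%) were above 0 in that group alone. Most of these were near the limit of detection: 1499 of the 1844 (81.3%) were of 1 or 2 reads, and the highest was 24 reads. The deepest library, in which 1 read was worth 0.453, gave 1373 of the 1844 values, the library also labelled high bull fertility 324, and the shallowest 147. How far depth accounts for these rows was not tested.

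**Figure D3:**
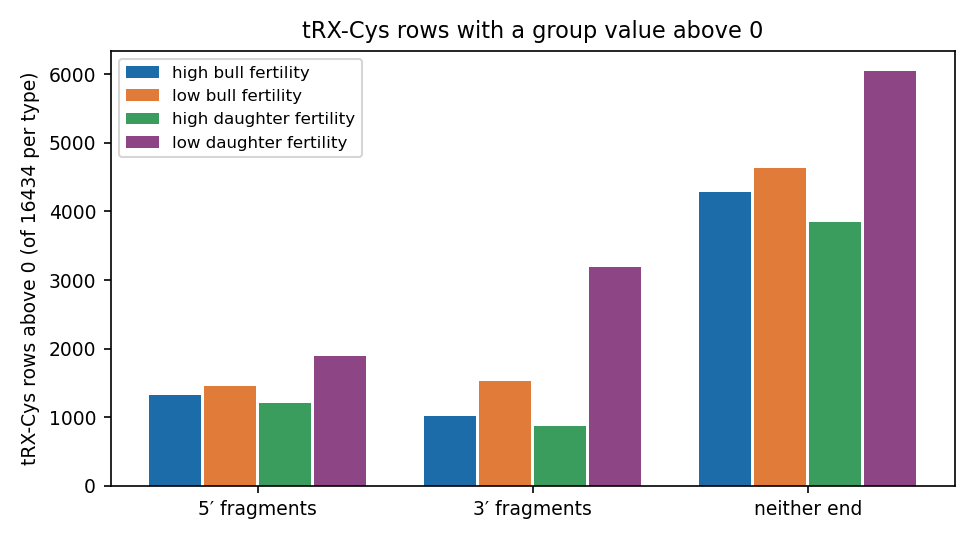
Number of cysteine tRNA-like rows with a group value above 0, by fragment type and fertility group, of 16434 rows per type. Bars are counts with no error; 3′ rows number 3193 with low daughter fertility and 876 to 1521 in the other groups.

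The most abundant member was the 5′ fragment of tRX-Cys-NNN-95036. Its group values were 693 in the high bull group (692 reads in the middle library), 302 in the low bull group (338 reads), 418 in the high daughter group (319 reads) and 317 in the low daughter group (700 reads). It stood highest with high bull fertility, and its log2 fold changes in the authors' deposited table, 0.50 (implied SE 0.84, unadjusted p 0.556) for bull and 0.77 (implied SE 0.85, unadjusted p 0.365) for daughter fertility, were smaller than their errors. The 5′ fragment of tRX-Cys-NNN-13101 varied little: 344, 337, 355 and 344 in the same order of groups. Its equal values for high bull and low daughter fertility are the same 476 reads of the library that carries both labels. These levels are like those of the 5′ fragment of tRNA-Cys-GCA-4, among the most abundant of the cysteine tRNA genes, at 321, 381, 441 and 456.

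More 5′ members followed. The 5′ fragment of tRX-Cys-NNN-146585 had 173 in the high bull and 390 in the low bull group, while the daughter groups stood at 294 (high) and 332 (low). Its high bull fertility value is the 107 reads of the library that is also labelled high daughter fertility. The log2 fold change for bull fertility was -0.74 (implied SE 0.72) in the authors' deposited table, with an unadjusted p of 0.303. The 5′ fragment of tRX-Cys-NNN-146370 had 163, 148, 144 and 182 and so varied little between groups.

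The leading 3′ member was tRX-Cys-NNN-129079, with 236 in the high bull and 299 in the low bull fertility group, and 160 in the high daughter and 236 in the low daughter fertility group. Both values of 236 are the 327 reads of the library that carries both labels. Its log2 fold changes in the authors' deposited table were -0.09 (implied SE 1.02) and 0.04 (implied SE 1.03), which are far inside their errors.

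Among neither-end members, 5 of the 12 most abundant rows had almost the same values. For tRX-Cys-NNN-118110 they were 305 with high bull, 255 with low bull, 260 with high daughter and 45.3 with low daughter fertility, from 305, 285, 198 and 100 reads. For tRX-Cys-NNN-127178, tRX-Cys-NNN-94108, tRX-Cys-NNN-73829 and tRX-Cys-NNN-37404 the high bull fertility values were 289 to 295 and the low daughter fertility values 43.9 to 53.4. All 5 stood lowest with low daughter fertility, where the middle library was the deepest one of the series. Their log2 fold changes for daughter fertility ran from 1.31 to 1.42 in the authors' deposited table, with unadjusted p from 0.101 to 0.118. Rows this alike may count the same reads, and are not separate evidence.

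The neither-end row of tRX-Cys-NNN-34243 had another pattern: 314 with high bull, 180 with low bull, 140 with high daughter and 195 with low daughter fertility. Its log2 fold change for daughter fertility was -0.93 (implied SE 0.88) in the authors' deposited table, with an unadjusted p of 0.292. At tRX-Cys-NNN-148055 the neither-end row had the smallest p for bull fertility among the 12 most abundant rows: 71.1 in the high and 293 in the low bull group, from 71 and 554 reads. In the daughter groups it had 173 and 100, the latter being the 139 reads of the library also labelled high bull fertility. For bull fertility it stood at -1.85 log2 units (implied SE 0.81) in the authors' deposited table, with an unadjusted p of 0.0223, and the Benjamini-Hochberg adjusted p over all rows was 1. The library labelled both high bull and low daughter fertility, at 100, lies between the middle values of the high and low bull fertility groups.

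**Figure D4:**
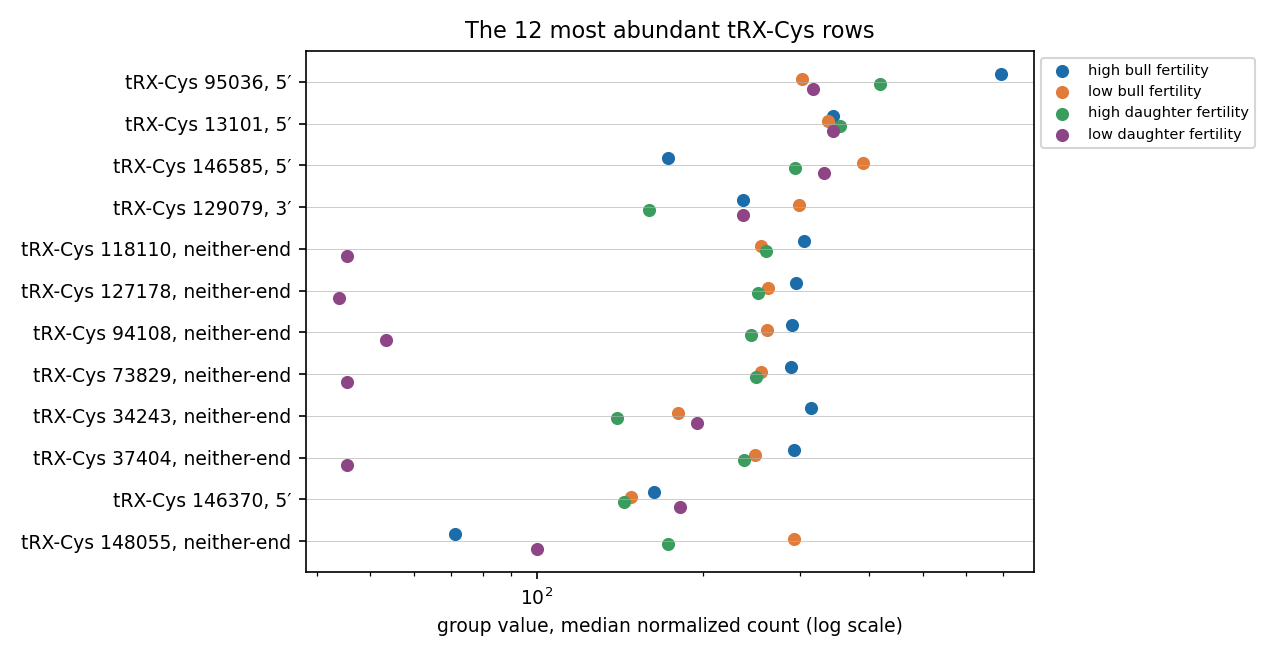
Group values (median normalized counts, log scale) of the 12 most abundant cysteine tRNA-like rows in the 4 fertility groups, 1 point per group with no error. In 5 neither-end rows the low daughter fertility point lies at 43.9 to 53.4 and the other 3 points between 237 and 305.

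Near-equal values recurred below these rows. Of the 85 rows with a mean of at least 50, 60 fell into 10 sets of 4 or more rows whose values in every group lay within 0.5 of each other on the log2(value + 1) scale, a grouping chosen after the values were seen. One set held 11 rows of 5′ fragments with 35.1 to 37.1, 47.6 to 55.0, 89.0 to 94.3 and 28.9 to 30.3 (high bull, low bull, high daughter and low daughter fertility). In all 11 the low daughter fertility value came from the library labelled both high bull and low daughter fertility. Most of the high daughter fertility values came from the library labelled both high bull and high daughter fertility. The difference between the daughter groups is thus mostly between libraries of the high bull group. Another 8 rows of 5′ fragments had 93.9 to 109, 120 to 141, 91.8 to 107 and 95.3 to 113, and so hardly differed between groups. However, in all 8 the low daughter fertility value came from the library also labelled high bull fertility. In 4 of them the high bull fertility value was that same library. Most of their high daughter fertility values came from the library also labelled high bull fertility, so these groups are not separate evidence.

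In a set of 6 rows of 3′ fragments 1 library stood far from its group value. They had 169 to 183 with high bull, 108 to 115 with low bull, 84.1 to 90.6 with high daughter and 7.75 to 9.97 with low daughter fertility. In all 6 the high bull fertility value came from the library that is also labelled low daughter fertility. That library therefore stood at 169 to 183 in the low daughter fertility group too, above the middle of the high daughter fertility group, while the middle low daughter fertility library had 7 to 9 reads. The daughter fertility groups thus overlapped, and the log2 fold changes in the authors' deposited table were 1.08 to 1.20, with unadjusted p from 0.323 to 0.393.

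Bull fertility separated none of these loci past the threshold. After Benjamini-Hochberg adjustment over the 98760 rows with a p in the authors' deposited table, 0 of the 30179 cysteine tRNA-like rows with a p were under 0.05 (0.0% of all rows), and the smallest adjusted p was 1. Unadjusted, 60 members (0.199%) had p under 0.05, against 0.249% of all rows. Of these, 50 stood higher with high bull fertility (background 0.169%) and 10 lower (background 0.08%). A uniform p would give 1509 of 30179, so the authors' p-values run large, and a count of 0 does not show that the loci do not differ. Of the 60, 55 had a mean under 10.

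**Figure D5:**
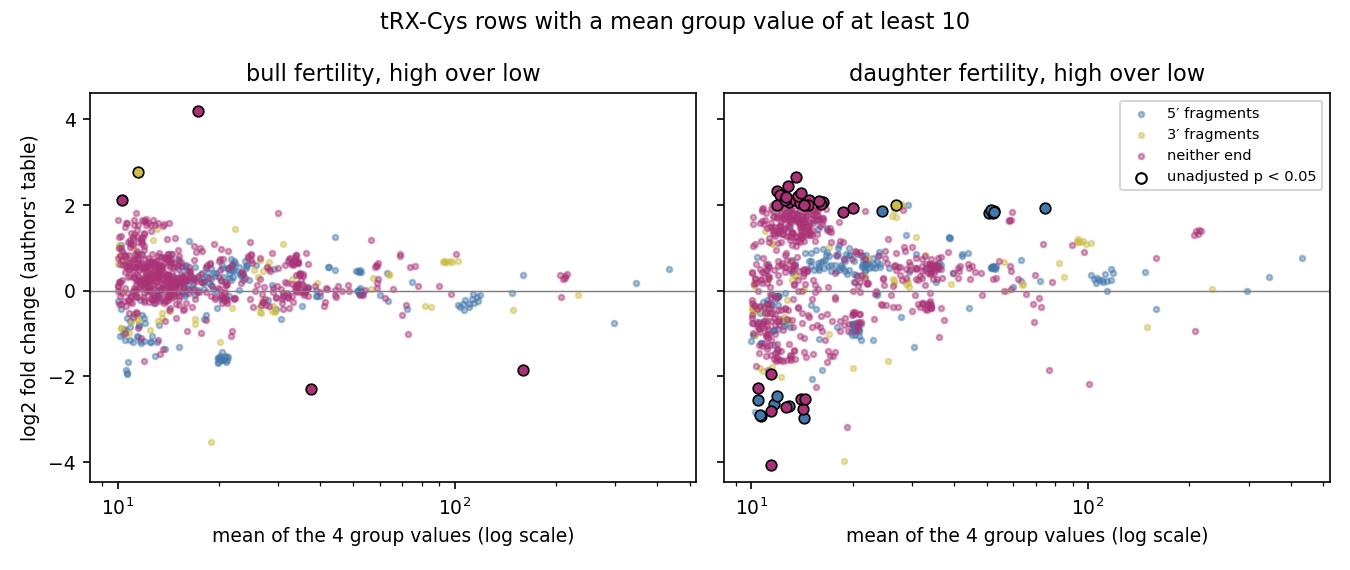
Log2 fold change in the authors' deposited table (high over low fertility) against the mean of the 4 group values (log scale), for the 857 cysteine tRNA-like rows whose mean reached 10, coloured by fragment type. Outlined points have an unadjusted p under 0.05: 5 for bull fertility and 44 for daughter fertility, and none passed adjustment.

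With a mean of at least 10, 3 rows stood higher in the high bull group and 2 stood lower, at an unadjusted p under 0.05, where the backgrounds were 0.474% and 0.58% of rows and the members' shares 0.353% and 0.235%. For tRX-Cys-NNN-133187 the neither-end row had 64.7 in the high and 1.06 in the low bull group, from 40 reads and 1 read. Its value in the high daughter fertility group was 0, although the 40 reads come from the library labelled both high bull and high daughter fertility. In that group 1 library thus held 40 reads and at least 2 held none. The low daughter fertility value was 3.32, so this row reached a mean of 10 through the high bull group alone. The log2 fold change for bull fertility was 4.19 (implied SE 1.30) in the authors' deposited table.

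The other 2 higher rows also rested on few reads on the low side. The 3′ row of tRX-Cys-NNN-10376 had 37.1 in the high and 1.59 in the low bull group, from 37 and 3 reads, and a log2 fold change of 2.78 (implied SE 1.30) in the authors' deposited table. The neither-end row of tRX-Cys-NNN-25196 had 22.7 and 0.893, from 14 reads and 1 read, and stood at 2.13 (implied SE 1.02) in the authors' deposited table. Among its group values only the high bull one reached 10. Lower with high bull fertility, beside tRX-Cys-NNN-148055, was the neither-end row of tRX-Cys-NNN-124154, with 13.0 against 57.1 and a log2 fold change of -2.29 (implied SE 0.96, unadjusted p 0.0177) in the authors' deposited table.

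Next in order, with unadjusted p over 0.05, came the neither-end rows of tRX-Cys-NNN-117550 at 1.82, tRX-Cys-NNN-38104 at 1.62 and tRX-Cys-NNN-147411 at -1.64 on the log2 scale in the authors' deposited table. The 5′ rows of tRX-Cys-NNN-109750 and tRX-Cys-NNN-85034 had the same 4 group values, such as 4.33 in the high and 15.9 in the low bull group, and stood at -1.93 and -1.92 in the authors' deposited table. The smallest p of all members for bull fertility, 0.000673 unadjusted, was that of the neither-end row of tRX-Cys-NNN-84937 in the authors' deposited table. Its values were 16.2 with high bull fertility (10 reads) and 0 with low bull fertility, and its log2 fold change of 4.21 is a fitted value, not a bound.

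Over these 857 abundant rows (mean 10 or more) the median log2 fold change for bull fertility was 0.22 in the authors' deposited table, with 569 rows higher and 288 lower. The median over all rows of the table at this level was -0.03. Neither-end rows had a median of 0.29 (426 of 579 higher), 3′ rows of 0.23 (35 of 66) and 5′ rows of 0.02 (108 of 212) in the authors' deposited table. Neither-end rows of other tRNA-like loci had 0.22, and of tRNA genes -0.10. With group values in place of the fitted fold change the median was 0.07, and at a mean of at least 100 it was -0.14, so the direction depends on the level looked at.

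Daughter fertility gave more small p-values, and again none past the threshold. Adjusted over all 98760 rows, 0 of 30179 members were under 0.05 (0.0% of all rows), and the smallest Benjamini-Hochberg adjusted p was 1. Unadjusted p in the authors' deposited table was under 0.05 for 447 members (1.48%), against 1.33% of all rows. Of these, 377 stood lower with high daughter fertility (background 1.18%) and 70 higher (background 0.151%). The lower ones were mostly sparse: 236 of the 377 had a mean under 1, and 98 rows with p under 0.05 and a mean under 1 had a value of 0 in all 4 groups. By the worth of 1 read, all 3 low daughter fertility libraries were deeper than the high ones, and the part of depth in these rows was not tested.

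With a mean of at least 10 the balance turned. There 29 members were higher with high daughter fertility (3.41% of 850 with a p, background 1.13%) and 15 lower (1.76%, background 2.24%). The 29 rows were 21 of neither end, 7 of the 5′ end and 1 of the 3′ end, with log2 fold changes from 1.81 to 2.66 in the authors' deposited table. They reduce to 13 sets of near-equal rows, and the 15 lower rows to 7, so the counts may hold repeated signal. Whether the rows of a set share reads was not tested.

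The 5 rows named on the higher side all had their lowest value in the low daughter group. They were chosen for a small p in this direction, which favours such a value, so it is not separate evidence. The neither-end row of tRX-Cys-NNN-122838 had 14 with high bull, 16.1 with low bull, 21.0 with high daughter and 3.17 with low daughter fertility, and a log2 fold change of 2.66 (implied SE 1.01) in the authors' deposited table. For tRX-Cys-NNN-11931 (neither end) the daughter group values were 17.8 and 2.72, with 2.45 (implied SE 1.02) in the authors' deposited table. The neither-end rows of tRX-Cys-NNN-51067 and tRX-Cys-NNN-29317 each had 18.4 with high daughter fertility, from 14 reads, against 3.17 and 4.53. The one 3′ row, tRX-Cys-NNN-65664, had 32.4 in both high groups, the same 20 reads of the shared library, 38.4 with low bull and 4.43 with low daughter fertility, and stood at 2.00 (implied SE 0.87) in the authors' deposited table.

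A set of 5 rows of 5′ fragments, among them tRX-Cys-NNN-125402 and tRX-Cys-NNN-30240, had an unadjusted p under 0.05 in all its rows, and was singled out after its values were seen. It had 87.9 to 94.3 in the high and 21.7 in the low daughter group, the latter from 30 reads of the library also labelled high bull fertility. The bull groups had 50.1 to 51.1 (high) and 44.4 (low). Its log2 fold changes for daughter fertility were 1.81 to 1.90 and its unadjusted p 0.0337 to 0.0472 in the authors' deposited table, with an adjusted p of 1. The low bull fertility group, which shares no library with the daughter groups, lay between them.

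The 5 rows named on the lower side all had their highest value in the low daughter group. Here too the choice by small p and direction favours such a value. The neither-end row of tRX-Cys-NNN-55164 had 3.93 with high and 38.9 with low daughter fertility, from 3 and 86 reads, 3.00 with high bull fertility and 0 with low bull fertility. Its log2 fold change was -4.06 (implied SE 1.30, unadjusted p 0.00181) in the authors' deposited table. The 5′ row of tRX-Cys-NNN-74936 had 8.09 against 27.4 and stood at -2.96 (implied SE 1.01) in the authors' deposited table. Its 27.4 is the 38 reads of the library also labelled high bull fertility, a group whose middle value was 12.

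On the lower side, the neither-end row of tRX-Cys-NNN-142976 also had 10.2 with high and 23.8 with low daughter fertility, that of tRX-Cys-NNN-22836 had 6.56 and 20.9, and the 5′ row of tRX-Cys-NNN-136417 had 3.82 and 19.9. They stood at -2.77, -2.81 and -2.92 in the authors' deposited table. The values 23.8 and 20.9 come, like the 27.4 above, from the library also labelled high bull fertility. At any mean, the smallest member p was 0.000423 unadjusted, for the 5′ row of tRX-Cys-NNN-30634 in the authors' deposited table, with 1.62 in the high and 19.5 in the low daughter fertility group from 1 read and 43 reads. On the higher side it was the neither-end row of tRX-Cys-NNN-67799, with 6.56 (5 reads) in the high and 0 in the low daughter fertility group, and a fitted log2 fold change of 3.29 in the authors' deposited table.

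Over the 857 rows the median log2 fold change for daughter fertility was 0.48 in the authors' deposited table, with 563 higher and 294 lower, while over all rows at this level it was 0.04. By type the medians were 0.52 for neither-end, 0.47 for 5′ and 0.18 for 3′ rows, against -0.17, 0.12 and -0.38 for other tRNA-like loci and -0.41, -0.40 and -0.99 for tRNA genes in the authors' deposited table. Over all members with a mean of 1 or more the median was -0.18, so its sign depended on the level at which rows were taken. In 430 of the 857 rows (50.2%) low daughter fertility was the lowest of the 4 groups, and high bull fertility was the lowest in 28. The share with low daughter fertility lowest was 20.5% of 1997 rows in other tRNA-like loci and 9.96% of 673 rows in tRNA genes. For high bull fertility the share was 3.27% of members, against 11.2% and 33.7% in those classes. Where groups had equal values, as from a shared library, neither counted as lowest. High bull fertility shares a library with each daughter group.

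Likeness over the 857 rows was computed for the 4 pairs of groups that share no library. Spearman's rho was 0.624 for low bull with high daughter fertility, 0.529 for high with low bull fertility, 0.389 for high with low daughter fertility and 0.298 for low bull with low daughter fertility. The share of rows within 2-fold was 78.8%, 82.1%, 52.0% and 56.0% in that order, so both pairs with the low daughter group were lowest on both measures. The points are rows that may share reads, and the figures are descriptions.

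For 309 members the authors' deposited table gave a fold change without a p. The most abundant was the neither-end row of tRX-Cys-NNN-65307, with 129 in the high bull, 75 in the low bull, 77.4 in the high daughter and 122 in the low daughter fertility group. Its log2 fold changes were 0.86 and -2.18 in the authors' deposited table. No reason for the missing p is given in the files or labels. This row was picked after its values were seen.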

How the data were processed

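RNA came from sperm by a miRNeasy Mini Kit extraction, and small RNA libraries by a NEBNext kit, per the labels' protocols. The submitters' processing notes list Trimmomatic 0.39 and DESeq2 1.34.0 but no roles. No aligner, genome build or rule for counting reads is named in the labels or file headers, and no coordinate or sequence is printed. The authors deposited 1 normalized signal per row and group. Per the file headers, the deposited table also has a log2 fold change (high over low) and a p-value, unadjusted, for both comparisons. No table of per-sample values was analysed here.

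Computed here with Python 3.11.15, pandas 2.3.3, numpy 2.4.6 and scipy 1.17.1 were adjusted p-values (Benjamini-Hochberg, over every row that has a p, threshold 0.05), standard errors implied by fold change and p, and the reads behind each value. On simulated data the worth of 1 read was recovered in 20 of 20 draws, and 38018 of 38103 values were traced to the right library and reads. Named rows were the 12 most abundant, the leading row of each type, and per comparison 5 per direction by smallest p with a mean of at least 10 plus 1 at any mean. No locus had both ends among the 50 most abundant rows of their type, a further part of the rule. Cysteine tRNA genes were named for level, and rows said to be picked after their values were seen fall outside the rule. Members and lists were chosen with earlier results of these data known.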

Additional observations from a re-analysis of the deposited data

How the results depend on the processing

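The absence of members past an adjusted p of 0.05 held when adjusting over rows with a mean of at least 10 and at a threshold of 0.1. Counts and medians depended on level. At a group value of at least 10, 955, 753, 823 and 675 rows remained (high bull, low bull, high daughter, low daughter), and at least 1 left 5607, 5408, 5939 and 6746. With identical rows counted once, the shares of all signal were 2.18%, 1.63%, 1.84% and 1.34%, and the 10 rows of highest mean held 8.51%, 8.18%, 7.1% and 5.28% of the members' signal, against 8.01%, 7.5%, 6.7% and 4.35%. Of the rows with unadjusted p under 0.05, a mean of at least 10 left 3 higher and 2 lower for bull and 29 and 15 for daughter fertility. A mean of at least 100 left 0 and 1, then 0 and 0. Near-equal rows counted once, an alternative chosen after seeing the data, gave 3, 2, 13 and 7. For lower rows with high daughter fertility a mean of at least 1 left 141, and identical rows counted once 182.

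The median log2 fold change for bull fertility was 0.07 and 0.08 from group values (pseudocounts 1 and 0.5), 0.18 at a mean of at least 1, 0.23 with identical rows once, and reversed to -0.14 at a mean of at least 100. For daughter fertility it was 0.53, 0.55, -0.18 (reversed, at a mean of at least 1), 0.49 and, at a mean of at least 100, 0.31. The cause was not tested. Of 90 rows listed (near-equal sets included), 12 for bull and 11 for daughter fertility changed sign with group values. No paired analysis was possible because the table holds group values alone, and leaving out each sample in turn was not run.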
